A study of Homo sapiens with 9 samples.

Results

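IFIT1, IFIT2, IFIT3, IFIT5, IFI44, IFI44L, IFI6 and IFI27 are 8 interferon-induced genes, taken here by their symbols from 18417 genes that have a probe set with a single gene symbol on the array. Each of the 8 had 1 probe set, so no choice between probe sets was needed, and none of their 72 values (8 genes on 9 arrays) lay below 0 on the log2 scale. The arrays are Affymetrix human gene arrays, hybridised with RNA from T47D, an established luminal breast cancer cell line that responds to progestins. All groups used 1 engineered line, T47D-pHUSH-Elf5-shRNA. It was made from T47D-EcoR cells, kept in puromycin and given pHUSH, a retroviral vector from which doxycycline switches on a hairpin RNA against the ETS factor ELF5, so the vehicle cells carried the hairpin too. The 3 groups compared, of 3 arrays each, were cells given ethanol vehicle, cells given 10 nM of the synthetic progestin ORG2058 for 4 days (named progesterone in the labels), and cells given the same progestin with 0.1 µg/ml doxycycline for 4 days. The labels give no duration for the vehicle group and do not say whether the engineered line is a clone. Each array came from cells of 3 pooled wells, and the series describes the triplicates as independent experiments. No group given doxycycline without progestin and none with a control hairpin was analysed here, so an effect of doxycycline itself and one of lower ELF5 cannot be told apart.

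Interferons are secreted proteins that cells release when they sense foreign RNA or DNA. Type I and type III interferons act through receptors and JAK kinases on a complex of STAT proteins with IRF9, which binds the interferon-stimulated response element in the promoters of target genes. The IFIT genes lie side by side and encode proteins built from tetratricopeptide repeats that bind RNA or other IFIT proteins. IFI44 and IFI44L are a neighbouring pair of related cytoplasmic proteins, and IFI6 and IFI27 are small hydrophobic proteins of one family. In breast tumours these genes are a common part of interferon signatures.

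The promoter sequences are shown first because the 8 genes rose together in these cells and the response element is the feature their promoters are known for. RefSeq windows (build GRCh38.p14, 250 bases before to 50 after a transcript start) were given for 7 of the 8 genes, and none for IFIT2. The letters searched, the core of that element, were GAAA, any 2 bases and GAAA again, on both strands. Matches are written in capitals and begin with GAAA or, for the other strand, with TTTC. For genes with more than 1 window the first one listed is shown. Stretches begin 15 bases before the first match and end 15 bases after the last, or at the transcript start, and read in the direction of the gene.
IFIT1, chr10:89392492-89392544, plus strand: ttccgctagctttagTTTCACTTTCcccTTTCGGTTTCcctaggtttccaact
IFIT3, chr10:89327826-89327899, plus strand: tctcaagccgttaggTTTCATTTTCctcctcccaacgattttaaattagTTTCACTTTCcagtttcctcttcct
IFIT5, chr10:89414508-89414567, plus strand: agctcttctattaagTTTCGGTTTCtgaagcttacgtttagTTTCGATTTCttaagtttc
IFI44, chr1:78649756-78649788, plus strand: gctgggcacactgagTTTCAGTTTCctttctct
IFI44L, chr1:78620269-78620399, plus strand: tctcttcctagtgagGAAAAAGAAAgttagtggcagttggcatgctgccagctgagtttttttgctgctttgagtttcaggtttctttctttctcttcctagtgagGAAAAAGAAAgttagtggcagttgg
IFI6, chr1:27672261-27672363, minus strand: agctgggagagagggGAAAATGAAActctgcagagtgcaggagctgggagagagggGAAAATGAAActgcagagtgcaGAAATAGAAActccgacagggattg
IFI27, chr14:94110613-94110665, plus strand: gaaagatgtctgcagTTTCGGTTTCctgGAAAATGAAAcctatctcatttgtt

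All 7 promoters held the motif, against 3.57% of 35116 RefSeq windows and 4.38% of 27305 genes with a window. IFI6 held 3 matches, IFIT5 held 3 of which the last crosses the transcript start and is not capitalised, and IFI44 held 1. The motif was also found for 17 of 25 other type I interferon-induced genes with a window. It was not found in the windows of IFIT1B, IFI27L1 and IFI27L2, relatives of the IFIT and IFI27 genes. A palindrome in the shape of a progesterone receptor element (GNACA, any 3 bases and TGTNC, which reads the same on both strands) was found in 0 of the 7 promoters, against 0.48% of genes. It was found for 0 of the 25 other type I genes. At so low a share, a count of 0 in 7 cannot tell these promoters from others. A match of letters is a description of these windows and no evidence of binding.

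The cells and the hairpin were checked first. All 9 luminal markers, among them KRT8, GATA3 and ESR1, lay above the median probe set (7.23) in each group; with progestin 1 of them rose and 3 fell (PGR -2.28, GATA3 -0.51 and ESR1 -0.50). ELF5, the target of the hairpin, was between 10.05 and 10.26 with vehicle, between 11.23 and 11.31 with progestin and between 10.35 and 10.46 with doxycycline added (log2 change against progestin alone -0.87, adjusted p = 0.029 by limma). That call was lost in a fit of those 2 groups alone (adjusted p = 0.175), with the replicate number as a block (0.203) and with 8 of the 9 arrays left out in turn (up to 0.149), while the change stayed between -0.93 and -0.83. PTPRC, which marks all leukocytes, lay at 3.39, 3.57 and 3.06 in the 3 groups, and 0 of 9 leukocyte markers passed the limma test for progestin against vehicle (0 at an unadjusted p under 0.05), with 8 of 9 changes positive. The summed linear level of the 9 leukocyte markers was 416 to 521 with vehicle, 546 to 555 with progestin and 428 to 547 with doxycycline added, and that of 2 plasmacytoid dendritic cell markers 57 to 85, 62 to 73 and 59 to 68. The part of such cells in the results was not tested. Of the markers of other cell types, 2 of 4 endothelial ones were called higher with progestin and 0 lower, of 4 basal epithelial ones 1 higher and 1 lower (ACTA2), and of 6 fibroblast ones 0 higher and 1 lower (COL1A1). The array medians ranged from 7.19 to 7.28 over named probe sets. Vehicle replicate 3 had the lowest value of the vehicle arrays for 6 of the 8 genes, and the median rise is also given without it.

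Progestin against vehicle compares cells given the hormone for 4 days with vehicle cells, for which the labels give no duration. All 8 genes rose, by 11.3-fold (IFIT5) to 57.8-fold (IFI44), with a median log2 change of 4.88. The upper end rests on a dim vehicle signal: with 16 added to the linear values IFI44 rose 17.8-fold, IFIT1 had the largest rise at 33.3-fold, and 8 of 8 were still called. The test, limma with Benjamini-Hochberg adjustment over all 21214 named probe sets at an adjusted p of 0.05, called 8 of 8 higher, where it called 13.4% of all probe sets higher, 15.6% lower and 29.0% in either direction. A rise of at least 8-fold was seen for 8 of 8 genes and for 0.457% of all probe sets. The median change of all probe sets was 0.02. Without vehicle replicate 3 the median rise of the 8 genes was 4.75, and 8 of 8 were called.

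**Figure D1:**
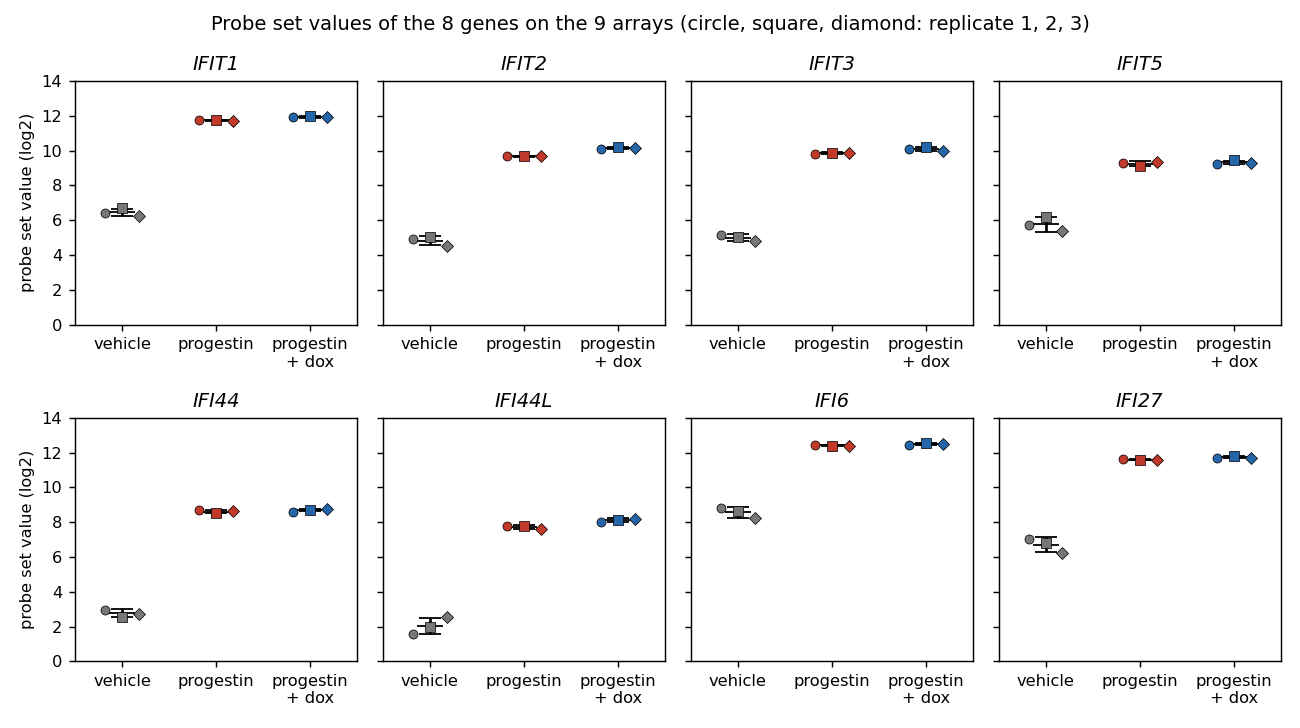
Probe set values (log2, vertical axis) of the 8 genes on each of the 9 arrays, by group; the wide bar is the mean and the whiskers 1 SD (n = 3). In every panel the vehicle arrays lie below all arrays with progestin, and the vehicle arrays are the most spread; heights are not comparable between panels because each probe set has its own sensitivity.

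The IFIT genes encode the RNA-binding arm of the set. IFIT1, which binds viral RNA caps that lack a methyl group, was at 6.41, 6.68 and 6.25 on the vehicle arrays, at 11.74, 11.77 and 11.71 with progestin and at 11.94, 12.01 and 11.91 with progestin plus doxycycline (log2, replicates 1 to 3). It rose 39.3-fold with progestin (log2 change 5.30, SE 0.11, adjusted p = 3.88e-08), and the gap between the groups was many times the spread within either. IFIT2, an IFIT1 partner that also favours cell death, was at 4.90, 5.02 and 4.53 with vehicle, at 9.72, 9.67 and 9.67 with progestin and at 10.09, 10.22 and 10.17 with doxycycline added. Its rise was 29.3-fold (log2 change 4.87, SE 0.12, adjusted p = 1.15e-07), and all 3 arrays with doxycycline lay above all 3 with progestin alone. IFIT3, which stabilises IFIT1 and strengthens its RNA binding, was at 5.17, 5.03 and 4.80 with vehicle, at 9.82, 9.88 and 9.89 with progestin and at 10.07, 10.21 and 9.99 with doxycycline added.

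IFIT3 rose 29.2-fold (log2 change 4.87, SE 0.11, adjusted p = 5.98e-08), much as IFIT2 did. IFIT5, which binds RNA with a triphosphate end and works without the other IFIT proteins, was at 5.72, 6.19 and 5.36 with vehicle, at 9.30, 9.09 and 9.36 with progestin and at 9.26, 9.45 and 9.29 with doxycycline added. It had the smallest rise of the 8, at 11.3-fold (log2 change 3.50, SE 0.19, adjusted p = 5.41e-06), and its progestin arrays were the most spread (SD 0.143, against 0.0304 to 0.0959 for the other genes).

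IFI44 and IFI44L gave the dimmest vehicle signals of the set. IFI44, a cytoplasmic protein with antiviral activity, was at 2.98, 2.54 and 2.75 with vehicle, at 8.68, 8.53 and 8.62 with progestin and at 8.61, 8.72 and 8.74 with doxycycline added. Its change was the largest of the 8 (log2 change 5.85, SE 0.11, adjusted p = 3.88e-08). IFI44L, its paralog, was at 1.60, 1.97 and 2.55 with vehicle, at 7.79, 7.77 and 7.61 with progestin and at 7.99, 8.14 and 8.20 with doxycycline added. It rose 51.5-fold (log2 change 5.69, SE 0.21, adjusted p = 8.08e-07), and its highest vehicle array was replicate 3, the lowest one for IFI6 and IFI27. Only 1.74% of the named probe sets had a lower vehicle mean than IFI44 and 0.688% a lower one than IFI44L, and the size of both rises rests on these dim values.

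IFI6 and IFI27 are small membrane-associated proteins; IFI6 restrains cell death and the growth of some viruses, and IFI27 is used as a blood marker of interferon activity. IFI6 was at 8.80, 8.66 and 8.22 with vehicle, at 12.45, 12.38 and 12.39 with progestin and at 12.43, 12.54 and 12.47 with doxycycline added. It rose 14.4-fold (log2 change 3.85, SE 0.14, adjusted p = 6.72e-07) from a probe set that was already bright in vehicle, with 73.4% of named probe sets below it. IFI27 was at 7.06, 6.82 and 6.23 with vehicle, at 11.62, 11.58 and 11.55 with progestin and at 11.70, 11.79 and 11.67 with doxycycline added. Its rise was 29.4-fold (log2 change 4.88, SE 0.18, adjusted p = 8.24e-07), and vehicle replicate 3 was its lowest array. For each of the 8 genes the vehicle and progestin arrays did not overlap, as was the case for 20.8% of all probe sets in this direction, and a two-sided exact permutation p was 0.1, the lowest that 3 against 3 arrays allow.

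The order of the rises depended on the scale. As deposited, it ran IFI44, IFI44L, IFIT1, IFI27, IFIT2, IFIT3, IFI6 and IFIT5. With 16 added to the linear value before the log, which holds down changes from dim signals, the order was IFIT1 (5.06), IFI27 (4.67), IFIT3 (4.30), IFIT2 (4.25), IFI44 (4.16), IFI6 (3.79), IFI44L (3.49) and IFIT5 (3.15). IFI44 thereby went from the first place to the fifth and IFI44L from the second to the seventh, while IFIT5 was last on both scales. Neighbours in the order were compared by their difference within each array. On the deposited scale these differences separated the groups for IFIT1 over IFI27 (by 0.42) and for IFIT3 over IFI6 (by 1.02), with an exact permutation p of 0.1 each, the smallest possible. For the other 5 neighbouring pairs they overlapped.

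**Figure D2:**
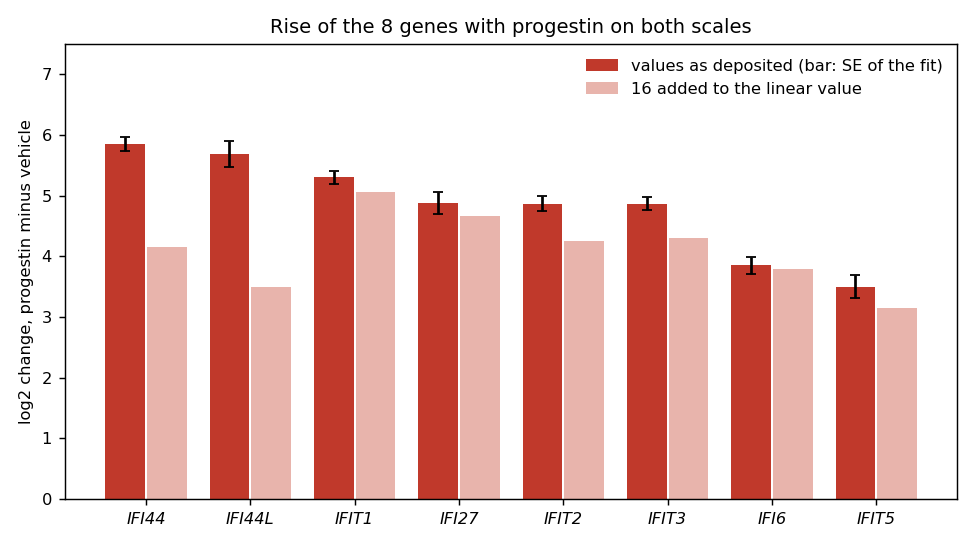
Log2 change with progestin (vertical axis) of each gene, on the deposited scale with the SE of the fit and with 16 added to the linear values. IFI44 and IFI44L lose most on the second scale (5.85 to 4.16 and 5.69 to 3.49), and IFI6 changes least (3.85 to 3.79).

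With doxycycline added to progestin, the rise over vehicle was there for all 8 genes. ELF5 in this group was 0.24 above vehicle on the log2 scale (adjusted p = 0.0502 by limma, not called). Progestin plus doxycycline against vehicle gave log2 changes from 3.57 (IFIT5) to 6.07 (IFI44L) with a median of 5.22; the test called 8 of 8 higher and 15.6% of all probe sets higher. The vehicle arrays are shared with the comparison above, so the 2 sets of rises are not independent.

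Adding doxycycline to progestin asks what doxycycline, together with the hairpin it switches on, changed in these genes. The test called 0 of the 8 genes, where it called 0.00943% of all probe sets higher and 0.0189% in either direction. With so few calls among all probe sets, a count of 0 in 8 cannot show that nothing changed. All 8 changes were positive, as were 56.1% of all changes, and their median was 0.17, against 0.03 for all probe sets. With quantile normalization the median of the 8 was 0.09 (0.02 to 0.40, all positive), against -0.012 for all probe sets. The 3 arrays with doxycycline lay above the 3 with progestin alone for 5 genes (IFIT1, IFIT2, IFIT3, IFI44L and IFI27), which was so for 14.8% of all probe sets and for 5 of 11 widely expressed control genes. An unadjusted p under 0.05 was found for 1 of the 8 genes and in this direction for 10.1% of all probe sets.

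IFIT2 had the largest of these changes, 0.47 on the log2 scale or 1.39-fold (SE 0.12, 95% confidence interval 0.20 to 0.75, unadjusted p = 0.00415 and adjusted p = 0.166 by limma). It passed the test under 1 alternative, a variance trend with robust estimation (adjusted p = 0.0198, against 0.112 to 0.444 by limma with 1 array left out), where 2.25% of all probe sets were called higher. IFI44L changed by 0.38 (interval -0.10 to 0.87, adjusted p = 0.465), IFIT3 by 0.22 (-0.02 to 0.47, adjusted p = 0.397) and IFIT1 by 0.21 (-0.03 to 0.46, adjusted p = 0.423). For IFI27 (0.14), IFI44 (0.08), IFIT5 (0.08) and IFI6 (0.07) the intervals reached from -0.36 at the lowest to 0.55 at the highest. A fall of more than 0.36 on the log2 scale therefore lay outside the interval of each of the 8 genes. The highest upper limit was 0.87, that of IFI44L alone. IFIT5 was at -0.01 without progestin replicate 2, and the other 7 changes stayed positive under each alternative and with any 1 array left out. These comparisons hold the progestin arrays in common with the first one.

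**Figure D3:**
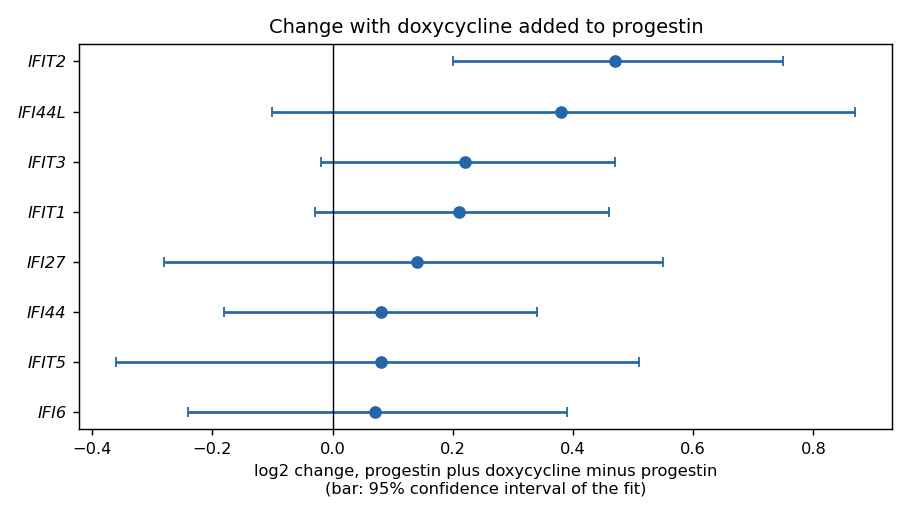
Log2 change with doxycycline added to progestin (horizontal axis), with the 95% confidence interval of the limma fit (n = 3 arrays a group). IFIT2 has an interval that lies wholly above 0 (0.20 to 0.75) before adjustment, and the other 7 intervals include 0.

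The genes beside the 8 on the chromosome were described next. The nearest 2 protein-coding genes on each side of each of the 8, by the order of a RefSeq gene table, made 17 genes, all measured. Of these 7 rose, 3 fell and 7 were not called, with log2 changes from -0.84 to 0.66, all smaller than the smallest rise among the 8 genes. Shares of 13.4% higher and 15.6% lower among all probe sets stand beside these counts. In the IFIT cluster IFIT1B lies between IFIT3 and IFIT1, and its values were 4.29, 4.41 and 4.36 with vehicle and 4.74, 4.08 and 4.05 with progestin (log2 change -0.07, SE 0.17, adjusted p = 0.811). The change of IFIT1 exceeded that of IFIT1B by 5.36, and their differences within arrays separated the groups (exact permutation p = 0.1, the smallest possible).

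Beyond the ends of the IFIT cluster, the lysosomal lipase LIPA rose by 0.62 and the transporter SLC16A12 by 0.53, and the coenzyme A synthesis enzyme PANK1 fell (-0.84). CH25H, next to LIPA, was not called (-0.24). Around IFI27, its relatives IFI27L1 and IFI27L2 rose by 0.44 and 0.66 (adjusted p = 0.000905 and 0.000857), less than IFI27 by 4.44 and 4.22, with exact permutation p of 0.1 each. Beyond these relatives, DDX24 rose by 0.32 and PPP4R4 fell (-0.76). Next to the IFI44 pair, PTGFR, GIPC2 and ADGRL4 were not called, and ADGRL2 fell (-0.78). FAM76A and STX12, on one side of IFI6, rose by 0.50 and 0.58, and FGR and AHDC1, on the other, were not called (0.16 and 0.04).

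**Figure D4:**
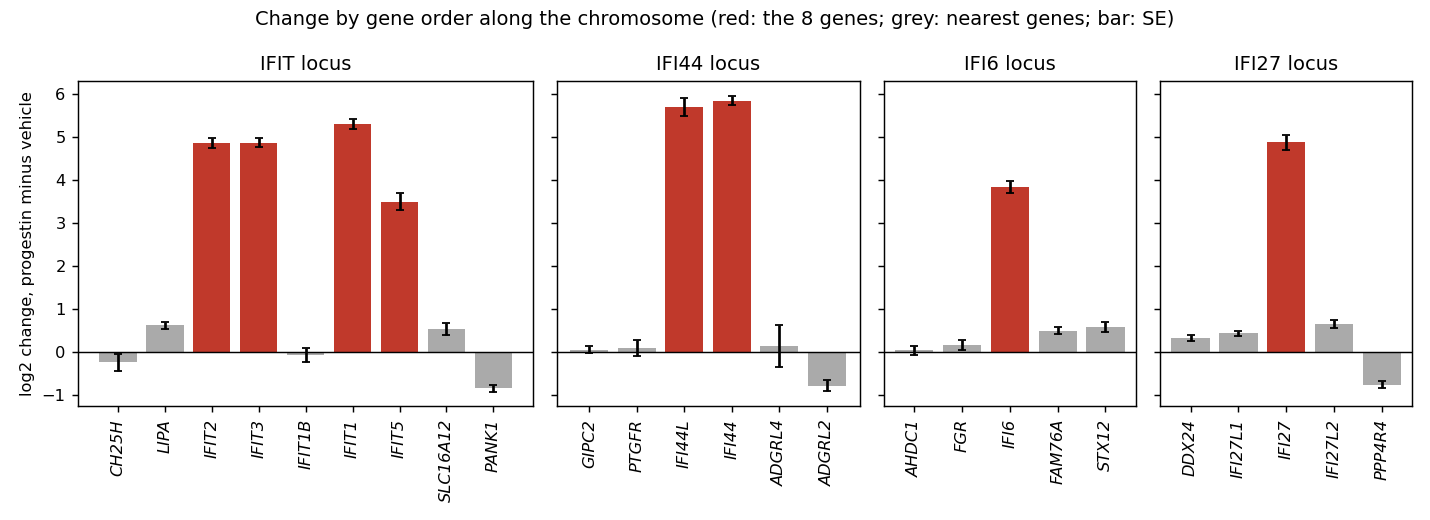
Log2 change with progestin (vertical axis, bar: SE) of the 8 genes (red) and their nearest genes (grey), in chromosome order and not to distance. The red bars stand between 3.50 and 5.85, and the grey ones between -0.84 and 0.66, IFIT1B inside the IFIT cluster included.

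The pathway that leads to these genes was described from lists of its parts. Of 14 measured interferon genes 0 passed the test for progestin against vehicle, with a median change of 0.05 (1 of 14 at an unadjusted p under 0.05, by limma). That gene was IFNG, the type II interferon, with means of 4.05 and 3.21 (log2 change -0.84, adjusted p = 0.124) and no overlap of the arrays. IFNB1, the first type I interferon made by infected cells, was at 2.22, 0.55 and 3.53 with vehicle and at 3.33, 3.14 and 3.86 with progestin (log2 change 1.34, adjusted p = 0.161; 0.33 with 16 added), and the groups overlapped. The vehicle means of 9 of the 14 interferon genes lay below the 10th percentile of named probe sets, which limits what the count of 0 can show. Among 6 receptor genes IFNGR1 rose (0.46), and IFNGR2 (-1.12) and the type I receptor chain IFNAR2 (-1.06) fell. The other type I chain, IFNAR1, had values of 8.87 and 8.82.

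Of 11 kinase, STAT and IRF genes measured, 6 rose and 2 fell, with a median of 0.35. IRF9, the DNA-binding part of the complex that acts on the response element, rose by 2.01 (SE 0.12, adjusted p = 8.77e-06), the kinase JAK2 by 2.00 (SE 0.08, adjusted p = 1.56e-06), IRF7 by 1.74 and IRF1 by 1.25. STAT3 rose by 0.38 and IRF2 by 0.30, whose adjusted p of 0.037 ran from 0.0116 to 0.103 over the alternatives and arrays left out. JAK1 (-0.82) and IRF3 (-0.36) fell. Of 11 sensors of foreign nucleic acid 7 rose and 0 fell, with RIGI at 2.86, DHX58 at 2.47, IFIH1 at 2.45 and TLR3 at 2.10. AIM2, also among the 7, was at 0.50 (adjusted p = 0.0449, and up to 0.166 over the alternatives and arrays left out). Of 9 genes listed as feedback regulators 4 rose and 1 fell: TRIM21 was at 1.92, USP18, which removes ISG15 from proteins and blocks the type I receptor, at 0.96 and PIAS1 at 0.60. The list also holds UBA7 (1.02), which activates ISG15 for attachment to proteins and is no inhibitor of the pathway; it is 1 of the 4.

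Among 30 other type I interferon-induced genes 30 rose, by 0.94 (IFITM2) to 6.60 (TRIM22), with a median of 2.65. TRIM22 had a dim vehicle signal (mean 2.53, with 1.34% of named probe sets below it), and its change was 4.72 with 16 added. Of 11 genes induced mainly by interferon gamma 4 rose and 0 fell (median 0.43): CXCL10 by 1.15, GBP4 by 1.02, PSMB9 by 0.77 and GBP2 by 0.72. Of 10 NF-kappaB targets 1 rose, NFKBIA (0.72), and 1 fell, RELB (-0.76). The widely expressed control genes rose in 1 of 11 cases (B2M, itself induced by interferon, 0.90) and fell in 6, with a median of -0.25. When doxycycline was added, 0 genes of these lists passed the limma test. An unadjusted limma p under 0.05 was found for 4 of the 30 other type I genes, all of them higher. In that direction it was found for 10.1% of all probe sets. The median changes then were 0.14 for the other type I genes, 0.08 for kinases, STATs and IRFs, and 0.05 for the control genes.

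**Figure D5:**
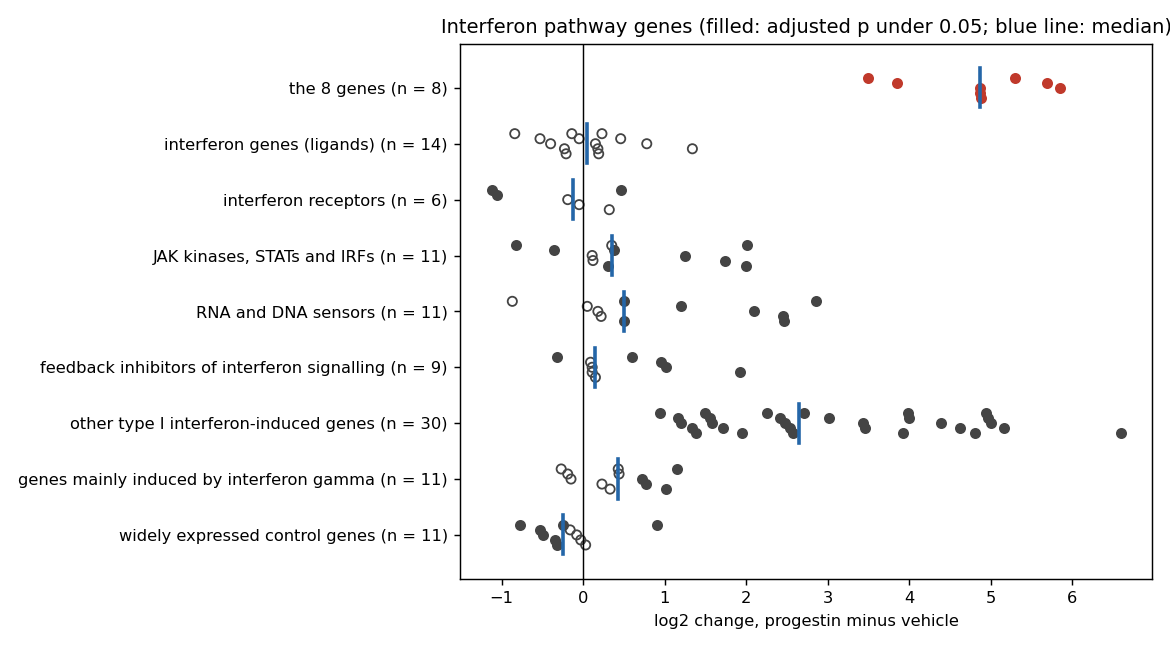
Log2 change with progestin (horizontal axis) of each measured gene of the pathway lists, filled where the adjusted p was under 0.05, with the median as a blue line. The 8 genes lie between 3.50 and 5.85, the 14 interferon genes are all open circles, and the 30 other type I genes are all filled.

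The genes most like the 8 were found by the root mean square difference, over the 9 arrays, between a gene's log2 profile and the mean profile of the 8, each centred on its vehicle mean. Among 9314 genes with a mean above the median the closest were OAS2 (0.10), OAS1 (0.14), ISG15 (0.15) and CMPK2 (0.16), then CRISP3 (0.22), SLPI (0.27), OASL (0.33), SYBU (0.36), CDC42EP3 (0.41) and MX1 (0.41). The mean was taken over all 9 arrays, and 9 of these 10 genes, all but MX1, had a vehicle mean below that median and so passed through the arrays with progestin. The list is therefore a description of genes with a high level in those groups. Of these 10 genes, 6 are in the list of other type I interferon-induced genes, and CRISP3, SLPI, SYBU and CDC42EP3 are in none of the lists. CRISP3 encodes a secreted cysteine-rich protein of glandular tissue, and its log2 level went from 6.0 to 10.78 with progestin and was 10.68 with doxycycline added. Among the 8 genes the same measure against their own mean was 0.07 for IFIT3, 0.14 for IFI27 and 0.17 for IFIT2, and up to 1.17 for IFIT5, which was farthest from it. The mean profile itself stood between -0.17 and 0.10 on the vehicle arrays and between 4.82 and 4.88 with progestin. With doxycycline added it stood between 5.0 and 5.12, above progestin alone. Of all single probe sets, 14.8% were likewise higher without overlap in that comparison. The test called 0 of the 8 genes there, and quantile normalization took their median change from 0.17 to 0.09.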

How the data were processed

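RNA of 9 samples was measured, 3 a group by their titles. The values, deposited by the authors as 1 table, are log2 values for 33297 probe sets; the scale was read from the lowest value, -16.6096 on all 9 arrays, which is the log2 of 1e-05. The submitters' processing notes name PLIER, limma, Affymetrix Expression Console and Affymetrix Power Tools; their roles, the normalization and the genome build are not given in the sources used here. Platform annotation gave 1 symbol to 19460 probe sets, several to 1754 and none to 12083. The 21214 named probe sets were fitted with limma 3.58.1 in R 4.3.3 (1 mean per group, eBayes, Benjamini-Hochberg adjustment), and the script was tested on simulated data. SE and confidence intervals come from this fit; the p-values reflect how these arrays vary, and their number limits the precision. The alternatives were another normalization, pseudocount, filter, variance model, sample set, block and centring, and each array left out. The 8 genes are always named, their nearest genes and closest profiles by the rules stated there, and up to 4 genes of a list by p; all receptors, kinases, STATs and IRFs may be given. AIM2, IFITM2, PTPRC and the luminal, basal and fibroblast markers fall outside this rule and were chosen after their values were seen. The genes and lists were chosen with earlier results of these data known.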

Additional observations from a re-analysis of the deposited data

How the results depend on the processing

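With progestin against vehicle and with progestin plus doxycycline against vehicle, the 8 genes kept their direction and calls under all 8 alternatives. The same held with each of the 9 arrays left out. The counts of all probe sets called stayed within 1.5 times of 6161 and 5953. A mean over all probe sets of a gene could not differ, because each of the 8 genes had 1. For doxycycline added to progestin, where 4 probe sets were called, the count was 15 with 16 added to the linear values, 158 without the dimmest 25% of probe sets, 12 with all probe sets of the table, 530 with a variance trend and robust estimation, and 0 in a fit of those 2 groups alone; with 1 array left out it was 0 to 2. Of the 8 genes 1 (IFIT2) was called there with the variance trend, and 0 under every other alternative and with any 1 array left out. IFIT5 turned to -0.01 without progestin replicate 2 and was at most 0.13 with any 1 array left out. The causes were not tested. Median centring was added after seeing the data; no scaling moved the median of all changes by more than 0.062, but quantile normalization took the median doxycycline change of the 8 genes from 0.17 to 0.09. The replicate numbers of the titles did not pair the arrays: deviations of same-numbered arrays correlated between -0.146 and 0.196. With the replicate number as a block, 0 probe sets were called for doxycycline added, against 5378 for progestin against vehicle, and the calls of the 8 genes were the same. The size of the IFI44 and IFI44L rises with progestin rests on dim vehicle signal. Their log2 changes were 5.85 and 5.69 as deposited, and 4.16 and 3.49 with 16 added.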

Other observations

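The vehicle arrays differed among themselves in interferon-induced genes. Vehicle replicate 3 was the lowest vehicle array for 27 of 30 other type I interferon-induced genes and for 6 of the 8 genes, and for 10579 of all 21214 probe sets. The median deviation from the vehicle mean on this array was -0.22 for the 30 genes, -0.24 for the 8 genes and -0.04 for all probe sets. On the progestin arrays the median deviations of the 8 genes lay between -0.02 and 0.04.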
